A study of Mus musculus with 42 samples.

Results

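Motile cilia beat because rows of dynein motors slide the doublet microtubules of the axoneme against each other. The outer and inner dynein arms carry the heavy chains, which hold the motor activity, and intermediate chains dock them. Assembly factors build the arms in the cytoplasm, radial spokes and the central apparatus regulate the beat, and tektins and microtubule inner proteins line the doublets. In the nose such cilia are known from the multiciliated cells of the respiratory epithelium that borders the olfactory epithelium, whereas the cilia of mouse olfactory sensory neurons are regarded as immotile and as lacking dynein arms.

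The axoneme genes described here are the protein-coding genes of GENCODE M21 whose symbols start with Dnah, Dnai, Dnaic, Dnaaf, Cfap, Rsph or Tekt followed by a digit. The rule finds 64 of the 44674 genes in the count table, and they lie on 17 chromosomes. Cfap99, the remaining gene of the 65 that fit the rule in GENCODE M21, was not analysed here. By role, the 64 genes comprise 5 outer arm and 10 inner arm dynein heavy chains, 2 intermediate chains, 6 assembly factors, 7 microtubule inner proteins, 5 tektins, 10 radial spoke genes, 7 genes of the central apparatus, 5 tethers or modifiers of the inner arms and 7 other genes named Cfap. Dnah14, Cfap97d1 and Rsph6a never exceeded 2, 3 and 6 counts in a library and were not tested, which left 61 genes.

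The study used pS6-ribotrap, a pulldown of ribosomes whose protein S6 is phosphorylated, to sample the RNA of recently active cells in the main olfactory epithelium. Adult male C57BL/6NCrl mice aged 8 to 12 weeks spent 1 h with no odour or with the odour of normal chow diet (NCD), of a bacon-flavoured diet (BFD) or of a lard-based high-fat diet (HFD_lard), and 4 epithelia were combined into each pool. Pools numbered 5 for no odour, 6 for NCD, 5 for BFD and 5 for HFD_lard, and each of the 21 pools gave a pulldown and an input library. All groups were wild type, each value is therefore an average over 4 animals, and the epithelia were dissected whole rather than sorted by cell type.

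The 42 libraries held 24839380 to 36781440 counts. Ribosomal RNA took 21.7% to 32.2% of the counts in the inputs without odour and 9.75% to 21.9% in the inputs with an odour. The inputs without odour held the defining genes of sensory neurons (Omp, 6453 ± 688 TPM, which counts transcripts per length and library, SD, n = 5) and of supporting cells (Cyp2g1, 3198 ± 645 TPM). They also held Foxj1, the transcription factor that drives motile ciliogenesis (82.7 ± 10.9 TPM). Of 11 markers of respiratory ciliated and secretory cells, Scgb1a1 and Scgb3a2, of airway secretory cells, were near 0 (0.0324 and 0.0315 TPM), and the other markers ranged from Bpifb1 at 13.1 TPM to Cyp2f2 at 1865 TPM. Sec14l3, at 1266 TPM, is also among the supporting cell markers used below, so it does not tell these cells apart. The input of pool 4 without odour stood apart, with fewer counts from long genes than any other input (described with the heavy chains). The main counts and most genes described in detail under odour are therefore also given without that pool. TPM levels and the fitted values of single genes in pulldown over input without odour are given with all pools only.

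The axoneme genes together took a small share of the RNA. In the inputs without odour they made up 0.224% to 0.239% of the counts outside ribosomal RNA, and in the pulldowns without odour 0.296% to 0.308%. The pulldown share lay above the input share in every pool without odour. In whole epithelium, more ciliated cells and more axoneme RNA per cell cannot be told apart.

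TPM was computed over the merged exons of each gene with ribosomal RNA in the total. On this scale the levels of the 64 genes spanned several orders of magnitude, and only 4 of the 63 neighbouring pairs in their order did not overlap between pools. Rsph1, a protein of the radial spoke head, was the most abundant in the inputs without odour at 228 ± 15.5 TPM (SD, n = 5). Cfap36, a binding partner of the ciliary GTPase Arl3, followed at 146 ± 11.7 TPM. Cfap298, an assembly factor, was at 106 ± 12.7 TPM, and Cfap126 (Flattop), a microtubule inner protein, at 85.8 ± 11.9 TPM. The level of Cfap298 is uncertain, because 42.9% of its 31-base words also occur in transcripts of other genes. With the longest transcript in place of merged exons, Cfap126 came before Cfap298 (126 and 101 TPM) and Cfap36 came closer to Rsph1 (207 and 225 TPM), and with ribosomal RNA left out of the total Rsph1 was at 344 TPM. On merged exons Rsph1 lay above Cfap36 and Cfap36 above Cfap298 in every pool, while most neighbours further down overlapped. Other radial spoke genes stood near the top, with Rsph4a at 66.6 ± 8.77 TPM, Rsph9 at 50.6 ± 9.67 TPM and Cfap206 at 41.5 ± 5.82 TPM. Cfap69, a central apparatus gene known in sperm and also in the cilia of olfactory sensory neurons, was at 63.4 ± 14.9 TPM. Dnaaf5, another assembly factor, was at 35.0 ± 4.06 TPM and Cfap20, another microtubule inner protein, at 30.6 ± 2.16 TPM.

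The dynein genes were far lower in these inputs, which include pool 4 with its few counts from long genes. The median over the 5 outer arm heavy chains was 3.21 TPM and over the 10 inner arm heavy chains 0.89 TPM. Dnah11 (5.82 ± 2.64 TPM) and Dnah5 (3.79 ± 1.32 TPM) led the outer arm chains, and Dnah6 (2.3 ± 0.758 TPM) and Dnah7a (1.78 ± 0.184 TPM) the inner arm chains. The BFD inputs held more, with Dnah11 at 15.6 ± 1.12 TPM and Dnah5 at 8.83 ± 0.889 TPM, against Rsph1 at 275 ± 15.4 TPM. The part of transcript length in these levels was not tested. The intermediate chains Dnaic2 and Dnaic1 were at 3.96 ± 0.803 and 3.68 ± 0.531 TPM. Of the tektins, Tekt1 was at 26.9 ± 2.32 TPM and Tekt4 at 4.49 ± 0.724 TPM, and Cfap65, of the central apparatus, was at 9.17 ± 3.35 TPM. Among the tethers and modifiers of the inner arms, Cfap57 was at 7.26 ± 1.31 TPM and Cfap100 at 6.80 ± 0.717 TPM, ranges that overlapped between pools. In all, 7 genes exceeded 50 TPM, 18 exceeded 10 TPM and 11 were under 1 TPM.

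**Figure D1:**
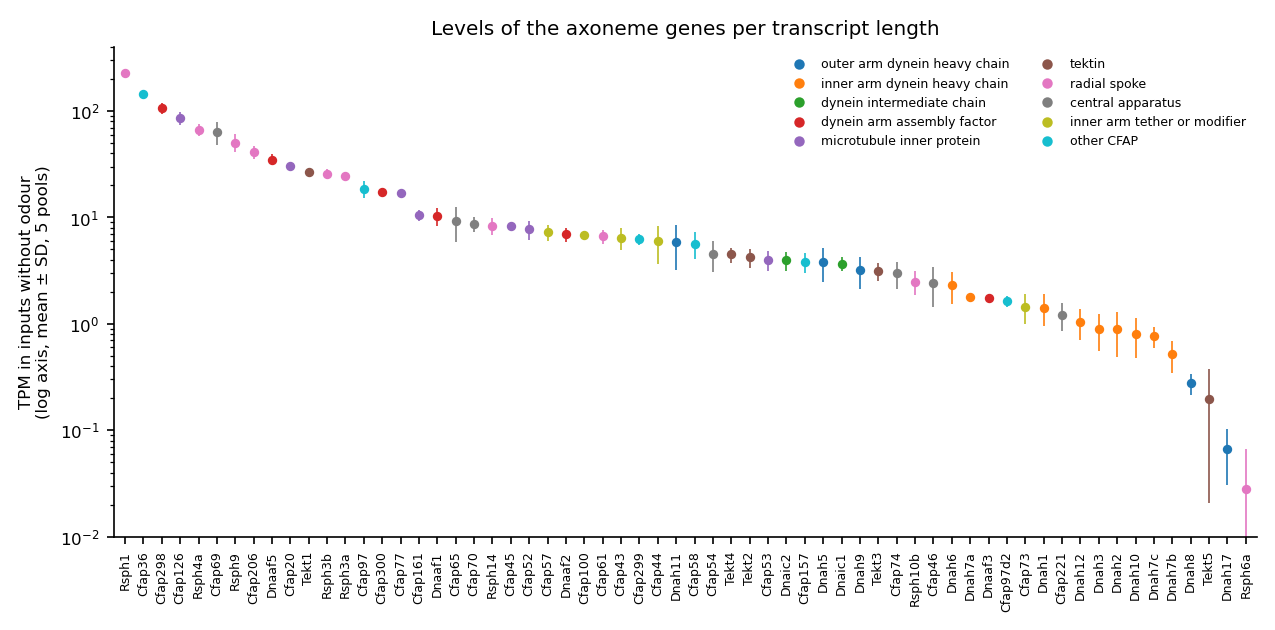
Levels of the axoneme genes in the 5 inputs without odour, ordered from high to low (y axis, TPM on a log axis; points are means, bars the SD, colours the role). Rsph1 stands highest at 228 TPM, the dynein heavy chains fill much of the lower end, and Dnah14 and Cfap97d1, at 0, are not drawn.

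The first comparison set each pulldown against its own input in the pools without odour, as the baseline for the odours. Most axoneme genes had pulldown values above their input values, though not all passed the test. In the edgeR fit over 21168 genes, at an adjusted p threshold of 0.001 (Benjamini-Hochberg), 25 of the 61 genes were higher and 1 was lower. Over all genes tested, 19.8% were higher and 16% lower. The median log2 difference was 0.35 for the axoneme genes and 0.01 for all genes, and 52 of the 61 lay above 0. Without pool 4, 21 were higher and 1 lower, against 17.8% and 14.5% of all genes, and the median stayed at 0.35. A fit on the libraries without odour alone called 12 higher and 1 lower, and its share over all genes was not computed.

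Rsph1 had log2 values of pulldown over input of 1.19, 0.99, 1.25, 0.93 and 1.38 in pools 1, 2, 3, 4 and 6. Every pool lay well above 0, and the fitted difference was 1.15 (SE 0.09, adjusted p = 1.2e-10 by edgeR). Dnaaf2, an assembly factor that acts on dynein before it enters the cilium, reached 0.98, 1.24, 1.13, 0.80 and 0.95, with a fitted difference of 1.02 (SE 0.09, adjusted p = 5.7e-10 by edgeR). Because 71.1% of the 31-base words of Dnaaf2 also occur in transcripts of other genes, its level is uncertain.

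Cfap36 was close behind and the most even of the group, with 0.91, 0.86, 0.84, 0.68 and 0.91 (fitted 0.84, SE 0.08, adjusted p = 8e-10 by edgeR). Dnaic2, an intermediate chain of the outer arm, gave 0.91, 1.01, 0.64, 1.00 and 0.62 (fitted 0.84, SE 0.08, adjusted p = 1.1e-09 by edgeR). Cfap45, a microtubule inner protein, gave 0.71, 0.37, 0.68, 0.56 and 0.62 (fitted 0.59, SE 0.06, adjusted p = 4.2e-09 by edgeR). For all 5 genes no pool was at or below 0.

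Cfap97 was the only gene past the threshold in the other direction, with -0.89, -0.60, -0.73, -0.41 and -0.45 in the 5 pools. All pools lay below 0, and the fitted difference was -0.62 (SE 0.10, adjusted p = 5.5e-06 by edgeR). Cfap97 overlaps 1 gene on each strand, and since the library kit does not mark strand, reads from overlapping genes cannot be told apart. Cfap69 lay at -0.20 (SE 0.06, adjusted p = 0.0088 by edgeR), short of the threshold.

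The genes that were higher came from every role. Both intermediate chains passed the test, Dnaic1 at 0.72. So did 4 of 6 assembly factors (Dnaaf2, Dnaaf3, Cfap298 and Dnaaf1), 5 of 9 radial spoke genes (Rsph1, Rsph10b, Rsph3a, Rsph3b and Cfap206), 3 of 7 central apparatus genes (Cfap46, Cfap74 and Cfap70), 3 of 7 microtubule inner proteins (Cfap45, Cfap20 and Cfap52), 2 of 5 tektins (Tekt2 and Tekt4) and 2 of 5 inner arm tethers or modifiers (Cfap43 and Cfap57). Among the heavy chains 3 of 14 passed, Dnah8 of the outer arm and Dnah1 and Dnah7a of the inner arm. Without pool 4 only Dnah7a of these passed, and the median of the 14 heavy chains went from 0.33 to 0.15. Rsph3a and Rsph3b share most of their sequence, and the estimated counts divide reads between them.

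**Figure D2:**
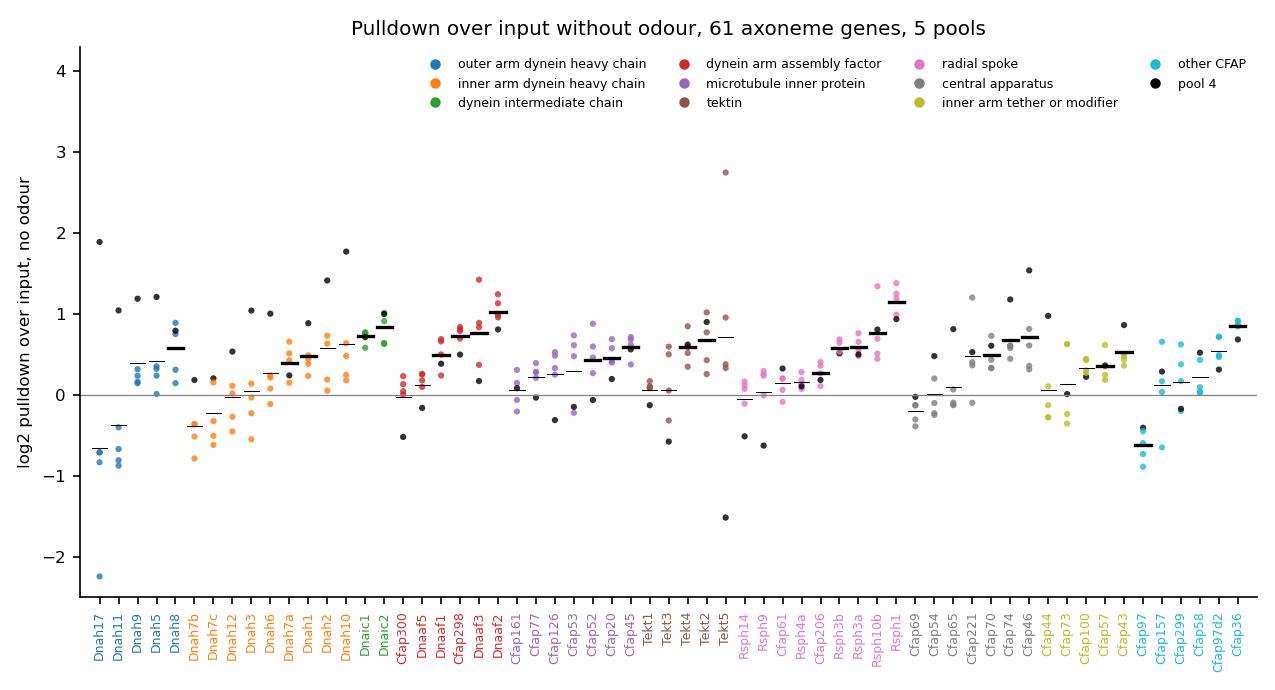
Log2 pulldown over input without odour for the 61 tested axoneme genes, grouped by role (colours) and ordered by value within each role. Points are the 5 pools, black points are pool 4, horizontal bars are the fitted values, and thick bars mark the 26 genes past the threshold. Rsph1 has all pools between 0.93 and 1.38, Cfap97 all pools below 0, and in 12 of 14 heavy chains pool 4 lies above the other pools.

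Related genes with other names were described in the same way. Of 38 further axonemal genes tested (dynein regulatory complex, central pair and arm assembly genes such as Drc1, Hydin and Zmynd10), 18 were higher in the pulldown without odour and 1, Dnal1, was lower, with a median of 0.32. Of 13 genes of the multiciliated cell programme, 8 were higher and 0 lower. Deup1, which builds the many centrioles of multiciliated cells, was at 1.73 (SE 0.11, adjusted p = 6.7e-12 by edgeR). Foxj1 was at 1.10 (SE 0.08, adjusted p = 1.6e-11 by edgeR).

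Markers of other cells differed between pulldown and input as well. Of 13 blood cell markers 11 were higher and 1 lower, and their summed level was 1427 to 2069 CPM (counts scaled to library size) in the pulldowns without odour and 372 to 691 CPM in the inputs. Of 11 supporting cell markers 10 were lower, with 3475 to 4883 CPM in the pulldowns and 10447 to 13972 CPM in the inputs, and none of these markers was at 0. Of 14 markers of mature sensory neurons 6 were higher and 3 lower, and of 11 markers of immature neurons and progenitors 8 were higher and 0 lower. Of 9 markers of respiratory ciliated and secretory cells 5 were higher and 3 lower, and Sec14l3 is counted both here and among the supporting cell markers. Their summed level went the other way from that count, with 1973 to 2414 CPM in the pulldowns and 3615 to 4462 CPM in the inputs. Omp itself differed by -0.07 (SE 0.07, adjusted p = 0.43 by edgeR). The part of these cells in the levels of the axoneme genes was not tested.

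Promoters were available for 52 of the 64 genes in the RefSeq tables (GRCm38.p6), each with 250 bases before and 50 after the start of a transcript. RFX factors, known regulators of ciliary genes, bind the X-box, a palindrome made of facing copies of GTTGCC. The motif GTTGCC was searched on both strands and occurred in 21 of the 52 genes (40.4%) and in 14.1% of the 27025 genes with a promoter in the table. A strict form of the X-box was also searched, GTTNCC followed by GGNAAC with 0 to 3 bases between them. It can overlap GTTGCC and occurred in 1 of the 52, Cfap298 (1.92%), and in 0.936% of all genes. Facing pairs with a mismatch were not counted, and the Dnaaf2 and Dnaic2 windows printed below each hold such a pair. The forkhead motif TGTTTAC, the kind that FOXJ1 binds, occurred in 4 (7.69%) and in 4.05% of all genes. Promoters are shown for Cfap298, as the holder of the strict form, and for Dnaaf2, Dnaic2 and Cfap100, chosen because they hold GTTGCC and are described in detail. Dnah7a and Dnah10 also hold GTTGCC and are not shown. The windows of Cfap36, Cfap45, Dnah1 and Cfap43, also described in detail, hold none of these motifs. Capitals mark GTTGCC on either strand. The windows are chr16:90934800-90935099 on the minus strand for Cfap298, chr12:69198380-69198679 on the minus strand for Dnaaf2, chr11:114727169-114727468 on the plus strand for Dnaic2 and chr6:90428431-90428730 on the minus strand for Cfap100.
Cfap298: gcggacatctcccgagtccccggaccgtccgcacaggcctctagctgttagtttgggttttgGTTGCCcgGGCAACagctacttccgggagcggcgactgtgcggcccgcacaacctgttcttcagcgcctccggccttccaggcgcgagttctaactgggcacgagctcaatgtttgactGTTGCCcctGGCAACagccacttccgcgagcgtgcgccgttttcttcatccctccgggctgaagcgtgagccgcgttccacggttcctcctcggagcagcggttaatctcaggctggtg
Dnaaf2: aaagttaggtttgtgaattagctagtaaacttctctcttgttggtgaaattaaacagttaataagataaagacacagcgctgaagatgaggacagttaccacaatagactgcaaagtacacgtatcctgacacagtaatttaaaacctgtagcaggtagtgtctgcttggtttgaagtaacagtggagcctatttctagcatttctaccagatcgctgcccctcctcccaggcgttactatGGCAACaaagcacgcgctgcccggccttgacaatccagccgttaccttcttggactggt
Dnaic2: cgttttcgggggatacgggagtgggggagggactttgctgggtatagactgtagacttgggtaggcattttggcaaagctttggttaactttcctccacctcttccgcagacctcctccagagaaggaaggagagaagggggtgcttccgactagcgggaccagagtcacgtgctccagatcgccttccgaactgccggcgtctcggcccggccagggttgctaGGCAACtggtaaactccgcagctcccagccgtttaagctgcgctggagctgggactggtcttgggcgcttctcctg
Cfap100: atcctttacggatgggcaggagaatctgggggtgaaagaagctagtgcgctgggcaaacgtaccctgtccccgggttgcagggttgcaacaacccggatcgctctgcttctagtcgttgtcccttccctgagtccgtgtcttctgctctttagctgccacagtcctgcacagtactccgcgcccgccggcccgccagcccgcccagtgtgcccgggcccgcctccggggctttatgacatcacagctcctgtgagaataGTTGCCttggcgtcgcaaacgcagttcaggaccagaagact

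Cfap298 has 2 facing pairs of this motif, and Dnaaf2, Dnaic2 and Cfap100 have 1 copy each. Rsph1, which had the largest pulldown value, is not in the promoter table. A match is a description of letters and no sign that a factor binds there.

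The next comparisons asked whether an odour changed pulldown over input relative to no odour. The 3 odours share the pools without odour, so their values are not independent. Few axoneme genes passed the threshold. Under NCD odour 1 gene rose and 1 fell (all genes: 0.359% higher, 0.165% lower), under BFD odour 0 rose and 2 fell (all genes: 2.47% higher, 1.32% lower), and under HFD_lard odour 0 passed in either direction (all genes: 0.699% higher, 0.52% lower). At an unadjusted p under 0.05 in the edgeR fit, 10 were higher and 20 lower under NCD (all genes: 13.9% and 14%), 11 and 29 under BFD (all genes: 17.2% and 16.4%), and 7 and 26 under HFD_lard (all genes: 14.4% and 15.2%). DESeq2 with the same design called 2 genes under NCD, 11 under BFD and 1 under HFD_lard. The share of all genes that DESeq2 called, here and below, was not computed. The medians over the 61 genes were -0.23, -0.25 and -0.27 in that order, against values within 0.02 of 0 for all genes. Without pool 4 they were -0.17, -0.26 and -0.21.

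Dnah1, an inner arm heavy chain, had log2 values of 0.38, 0.44, 0.48, 0.88 and 0.23 without odour. Under NCD odour the lowest, median and highest of 6 pools were -0.58, -0.32 and 0.05. Under BFD odour the pools gave -0.08, -0.75, -0.51, -0.25 and -0.45. Under HFD_lard odour they gave -0.11, -0.04, -0.23, -0.06 and 0.34. All NCD and BFD pools lay below all pools without odour, and 1 HFD_lard pool overlapped them. The Dnah1 inputs held 1.42 ± 0.473 TPM (SD) without odour, with ribosomal RNA in the total. They held 2.31 ± 0.277 TPM under NCD, 2.85 ± 0.28 TPM under BFD and 2.13 ± 0.259 TPM under HFD_lard. The part of the inputs in the changes of Dnah1 was not tested.

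The fitted change of Dnah1 was -0.79 under NCD (SE 0.14, adjusted p = 0.00096 by edgeR), -0.88 under BFD (SE 0.14, adjusted p = 0.00018 by edgeR) and -0.50 under HFD_lard (SE 0.14, adjusted p = 0.02 by edgeR). Without pool 4 the changes were -0.69 (adjusted p = 0.0027 by edgeR), -0.78 (adjusted p = 0.00057) and -0.40 (adjusted p = 0.066), so only the BFD call held. With an offset for transcript length in each library, an alternative chosen after the data were seen, they were -0.46 (adjusted p = 0.0097 by edgeR), -0.43 (adjusted p = 0.011) and -0.12 (adjusted p = 0.55), and no call held.

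Cfap43, which belongs to the tether of an inner arm dynein, gave 0.49, 0.43, 0.47, 0.86 and 0.36 without odour and -0.09, -0.24, -0.17, -0.03 and 0.01 under BFD odour. The groups did not overlap. The fitted change was -0.63 (SE 0.11, adjusted p = 0.00042 by edgeR), and it was -0.53 without pool 4 (adjusted p = 0.0014 by edgeR) and -0.42 with the length offset (adjusted p = 0.0031 by edgeR), both short of the threshold. Under NCD odour the change was -0.40 (adjusted p = 0.016 by edgeR) and under HFD_lard odour -0.40 (adjusted p = 0.017 by edgeR). The Cfap43 inputs held 6.46 ± 1.55 TPM (SD) without odour and 11.4 ± 0.927 TPM under BFD, with ribosomal RNA in the total. In CPM, every BFD input of Cfap43 lay above every input without odour. The part of the inputs in its change was not tested. Cfap43 overlaps 2 genes on each strand.

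Cfap100, a modifier of the inner arm I1 dynein, went the other way. Its log2 values were 0.44, 0.30, 0.43, 0.22 and 0.27 without odour. Under NCD odour the lowest, median and highest were 0.81, 1.08 and 1.29. The BFD pools gave 0.59, 0.91, 1.11, 0.72 and 1.06, and the HFD_lard pools 0.80, 1.29, 1.22, 0.91 and 0.58. Every pool with an odour lay above every pool without.

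The fitted change of Cfap100 was 0.76 under NCD (SE 0.12, adjusted p = 0.00045 by edgeR), 0.55 under BFD (SE 0.13, adjusted p = 0.003 by edgeR) and 0.63 under HFD_lard (SE 0.13, adjusted p = 0.002 by edgeR). Only the NCD change passed the threshold. It was 0.73 without pool 4 (adjusted p = 0.0013 by edgeR), short of the threshold, and 0.73 with the length offset (adjusted p = 0.00038 by edgeR), past it. Without pool 4 the BFD and HFD_lard changes were 0.53 and 0.61. The DESeq2 call under HFD_lard odour was Cfap100. Both libraries of a pool differed: the pulldowns held 17.0 to 19.6 CPM without odour and 18.1 to 25.4 CPM with an odour, and the inputs 12.9 to 16.9 CPM without odour and 9.21 to 13.6 CPM with an odour. Cfap100 overlaps 1 gene on the opposite strand.

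Cfap58, a gene known from sperm flagella, had the smallest p of the lower genes under HFD_lard odour. It gave 0.04, 0.43, 0.09, 0.52 and 0.02 without odour and -0.05, -0.42, -0.35, -0.23 and -0.29 with HFD_lard odour. The groups did not overlap, and the fitted change was -0.49 (SE 0.12, adjusted p = 0.0069 by edgeR), short of the threshold, and -0.41 without pool 4 (adjusted p = 0.025 by edgeR). The difference of the input described below goes in the opposite direction. Pulldown over input contains that input, so these values are not independent.

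**Figure D3:**
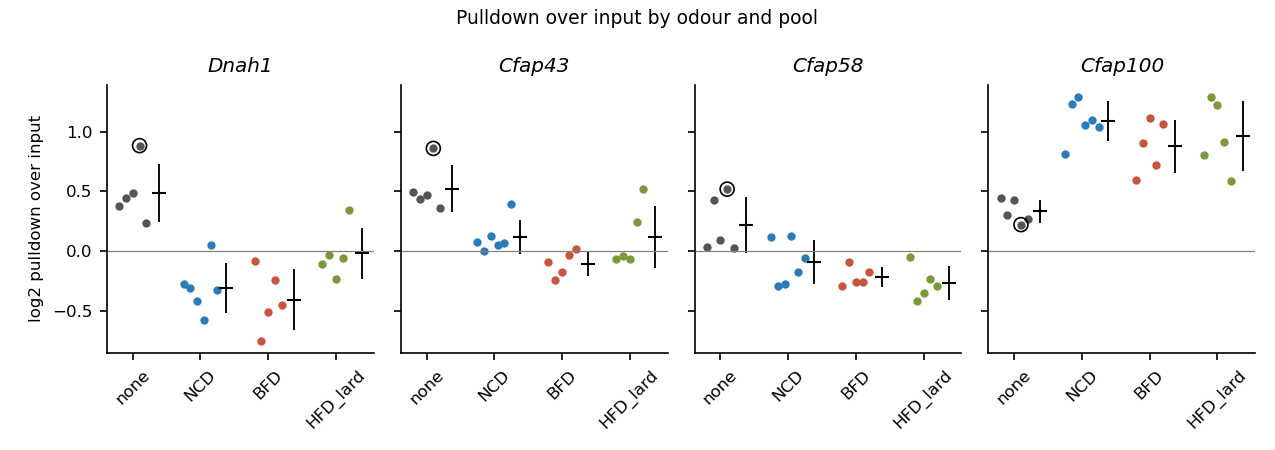
Log2 pulldown over input of 4 axoneme genes by odour. Points are pools, the ring marks pool 4 without odour, and black bars give the mean and SD of 5 or 6 pools. Dnah1, Cfap43 and Cfap58 are lower with odour in most pools, and Cfap100 is higher in every pool.

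No axoneme gene passed the threshold between odours, which does not show that the odours act alike. Between HFD_lard and NCD, BFD and NCD, and HFD_lard and BFD, 0 of the 61 genes passed in edgeR (all genes: 0.0236%, 0.00945% and 0.0378% in either direction), and DESeq2 called 0 in each. At an unadjusted p under 0.05, 2 were higher and 0 lower (all genes: 2.38% and 2.24%), 1 higher and 4 lower (3.69% and 3.55%), and 2 higher and 0 lower (3.48% and 4.52%). The median differences were -0.04, -0.02 and -0.02.

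The changes under odour varied with transcript length. The 14 tested heavy chains have longest transcripts over 10 kb, and their median change of pulldown over input was -0.49 under NCD, -0.69 under BFD and -0.53 under HFD_lard, with 12, 12 and 13 of the 14 below 0. The 16 axoneme genes under 2 kb had medians of 0.10, 0.27 and 0.11. Among coding genes that are no axoneme genes, those over 10 kb had medians of -0.35, -0.47 and -0.38 and those under 2 kb medians of 0.20, 0.31 and 0.21. The 25 axoneme genes from 2 to 5 kb had medians of -0.16, -0.25 and -0.27, with 21, 19 and 21 of them below 0. Other coding genes of that length had medians of -0.02, -0.02 and -0.03. What sets the axoneme genes of this length apart was not tested. Spearman's correlation between change and length across the 61 genes was -0.47, -0.69 and -0.53, against -0.38, -0.46 and -0.38 across 16737 other coding genes. These correlations are across genes of the same libraries, and genes are not independent replicates.

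In the inputs the order was reversed, and under NCD and HFD_lard the size of the heavy-chain values rests on pool 4 without odour. Pulldown over input contains these same inputs, so a higher input lowers it by construction. The reversed order is therefore not an independent observation. The heavy chains had median differences against no odour of 0.22 under NCD, 0.48 under BFD and 0.20 under HFD_lard, and axoneme genes under 2 kb had -0.10, -0.25 and -0.11. Without pool 4 the heavy-chain medians were 0.06, 0.35 and 0.05, with 8, 13 and 8 of the 14 above 0. The other coding genes gave 0.27, 0.46 and 0.31 over 10 kb and -0.23, -0.37 and -0.21 under 2 kb. Spearman's correlation with length in the inputs was 0.53, 0.82 and 0.55 across the axoneme genes and 0.49, 0.57 and 0.47 across 16386 other coding genes. With the length offset the median of the heavy chains in the inputs was -0.05 under NCD, 0.03 under BFD and -0.10 under HFD_lard, and in pulldown over input it was -0.17, -0.25 and -0.12 under NCD, BFD and HFD_lard.

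**Figure D4:**
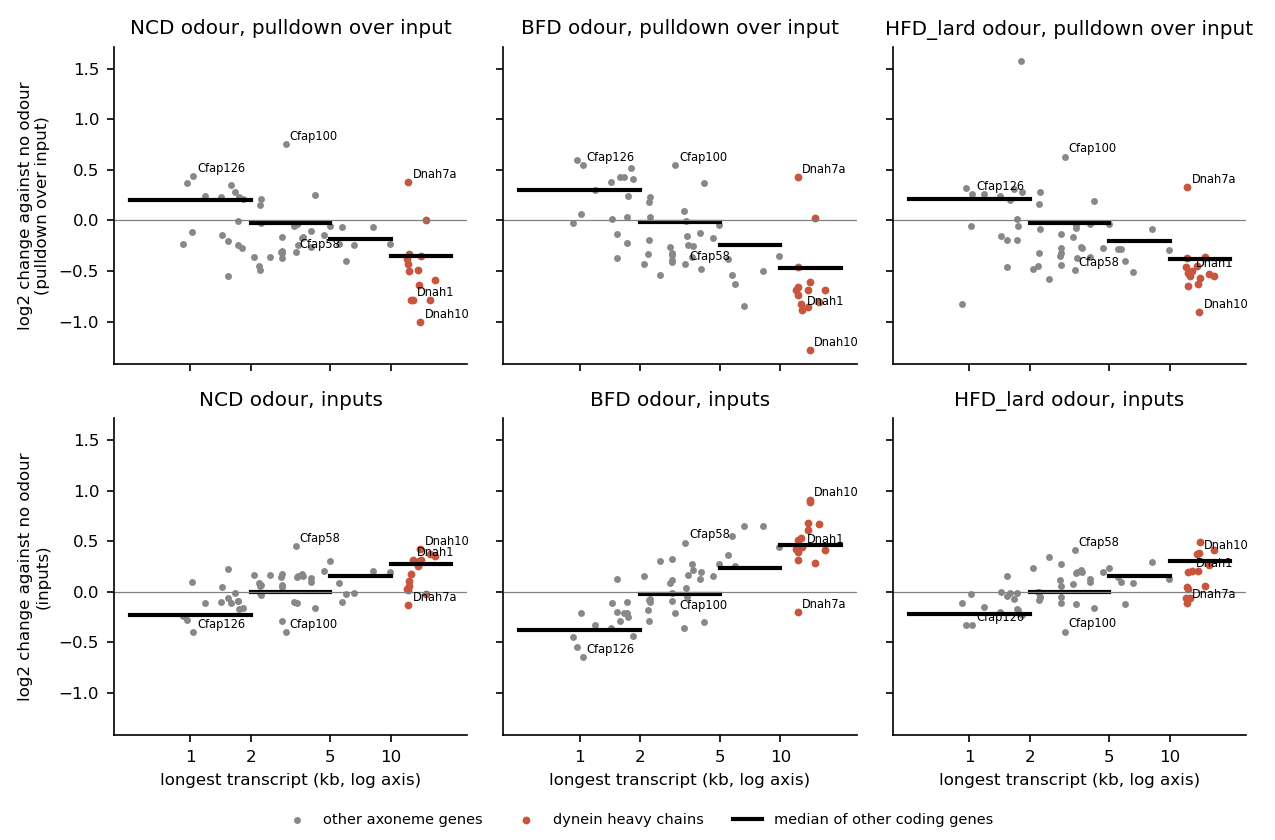
Log2 change against no odour (y axis) by length of the longest transcript (x axis, kb, log axis) for pulldown over input (top row) and for inputs (bottom row) under each odour. Red points are dynein heavy chains, grey points other axoneme genes, and black bars the medians of other coding genes under 2 kb, from 2 to 5 kb, from 5 to 10 kb and over 10 kb. Most heavy chains lie below 0 in the top row (12, 12 and 13 of 14) and above 0 in the bottom row (12, 13 and 11 of 14). The top row contains the inputs of the bottom row, so the rows are not independent.

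Pool 4 without odour bears on these values. The heavy chains' mean log2 deviation from the average input was -1.15 there and -0.08 to 0.03 in the other 4 inputs without odour. In the same library the median deviation of 380 other long coding genes was -0.91. The 5 BFD inputs all lay high for the heavy chains, at 0.27 to 0.36, while the NCD inputs ran from -0.26 to 0.10 and the HFD_lard inputs from -0.16 to 0.11. In the pulldowns, pool 4 without odour was not low (0.17), and the 5 pulldowns without odour ran from 0.08 to 0.31 (median 0.27). The medians of the pulldowns with odour were lower, at -0.15 under NCD, -0.18 under BFD and -0.28 under HFD_lard. Each of these groups overlapped the pulldowns without odour, and pulldowns 1 and 4 with BFD odour were the highest (0.46 and 0.48). Without pool 4 the median change of the heavy chains in pulldown over input was -0.31, -0.54 and -0.36 under NCD, BFD and HFD_lard.

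Dnah5, an outer arm heavy chain, shows it in single values. Its inputs without odour held 33.2, 31.5, 33.5, 15.02 and 33.4 CPM, so pool 4 lay well below the other pools. The BFD inputs held 45.9, 41.1, 48.2, 54.4 and 44.3 CPM, all above the inputs without odour. The input difference under BFD was 0.67 (SE 0.15, adjusted p = 0.0013 by edgeR), and without pool 4 it was 0.49 (SE 0.08, adjusted p = 3.3e-05 by edgeR), smaller in size but past the threshold. With the length offset it was 0.16 (adjusted p = 0.064 by edgeR).

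**Figure D5:**
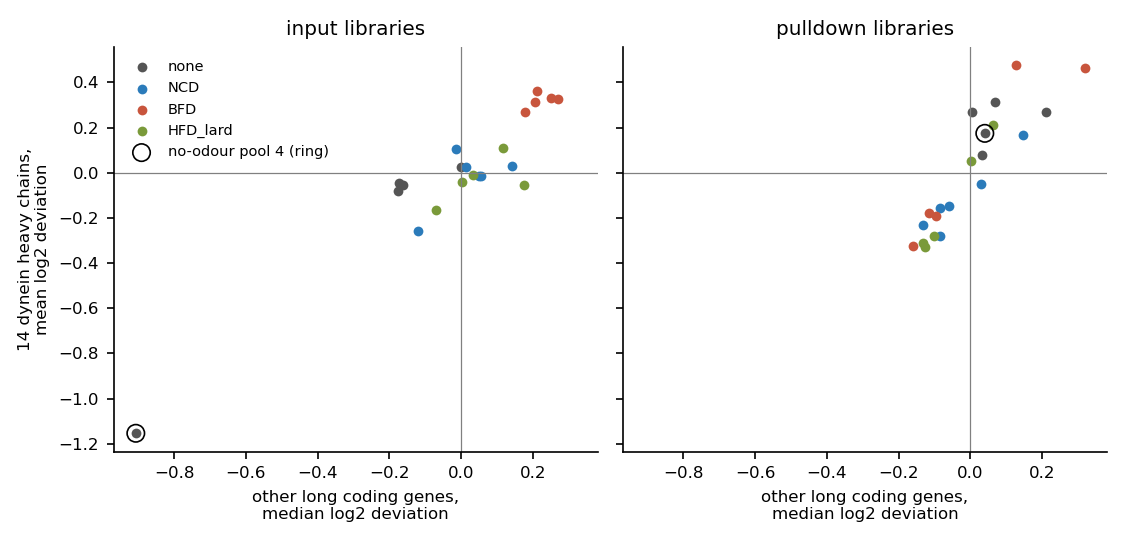
Mean log2 deviation of the 14 tested dynein heavy chains (y axis) against the median log2 deviation of other coding genes over 10 kb (x axis), for each input (left) and pulldown library (right), measured from the mean of the libraries of that type. Colours are odours and the ring marks pool 4 without odour, whose input lies at -1.15 and -0.91.

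Dnah7a, Dnah7b and Dnah7c are close copies on chromosome 1, and Dnah7a shares 54.2% of its 31-base words with other transcripts, mostly with Dnah7b. In pulldown over input Dnah7a lay above 0 under each odour, as did Dnah17 under NCD and BFD, by 0.01 and 0.02. The change of Dnah7a was 0.38, 0.43 and 0.33 under NCD, BFD and HFD_lard (adjusted p = 0.033, 0.013 and 0.064 by edgeR), none past the threshold. Its input difference under BFD was -0.20 (adjusted p = 0.053 by edgeR). How the reads were divided among the 3 copies was not tested.

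The inputs alone ask whether axoneme RNA in the tissue differed with odour. Those without odour also held more ribosomal RNA (median 27.8%, against 14.6% under NCD, 10.9% under BFD and 14.1% under HFD_lard). Pearson's correlation of the heavy chains' mean deviation with that share was -0.65 over the inputs (-0.54 without pool 4) and 0.45 over the pulldowns. The part of this in the input differences was not tested. Of the 60 genes tested in 20451, Cfap58 was higher and Cfap126 lower with any odour than without (all genes: 5.26% higher, 6.73% lower), rates below those of all genes. Cfap58 held 9.77, 7.91, 10.5, 9.17 and 11.96 CPM without odour. It held 11.98, 13.8 and 14.9 CPM as lowest, median and highest under NCD, 13.3, 13.4, 15.04, 15.05 and 12.5 CPM under BFD, and 10.9, 15.5, 13.9, 12.4 and 13.0 CPM under HFD_lard. NCD and BFD pools lay above the pools without odour, and 1 HFD_lard pool overlapped them. The fitted difference was 0.45 (SE 0.09, adjusted p = 0.0003 by edgeR), 0.41 without pool 4 (adjusted p = 0.0011 by edgeR), short of the threshold, and 0.44 with the length offset (adjusted p = 0.0003 by edgeR).

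Cfap126 held 66.0, 75.4, 70.5, 112 and 68.6 CPM without odour, so that pool 4 stood above the others. It held 56.7, 59.6 and 63.2 CPM as lowest, median and highest under NCD, 48.2, 51.8, 45.3, 53.5 and 52.6 CPM under BFD, and 53.1, 51.7, 62.7, 68.6 and 75.9 CPM under HFD_lard. All NCD and BFD inputs lay below those without odour, and the HFD_lard inputs overlapped them. The fitted difference was -0.46 (SE 0.09, adjusted p = 0.00061 by edgeR), -0.30 without pool 4 (adjusted p = 0.0018 by edgeR) and -0.18 with the length offset (adjusted p = 0.022 by edgeR), both short of the threshold.

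By odour, the BFD inputs held all the calls. Under BFD 4 of the 60 genes were higher and 4 lower than without odour (all genes: 5.41% higher, 8.34% lower), rates near those of all genes. Under NCD and HFD_lard 0 passed in edgeR (all genes: 0.998% and 0.963% in either direction). At an unadjusted p under 0.05 the NCD inputs had 12 higher and 4 lower (all genes: 17.4% and 18.2%) and the HFD_lard inputs 12 higher and 6 lower (all genes: 17.5% and 17.4%), and DESeq2 called 3 and 0. Under BFD DESeq2 called 17. The higher genes under BFD, named after their values were seen, were Dnah10 (0.91), Dnah9 (0.61), Cfap58 (0.49) and Cfap54 (0.44), and the lower genes were Cfap126 (-0.64), Cfap77 (-0.44), Cfap298 (-0.35) and Cfap20 (-0.30).

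Dnah10, an inner arm heavy chain, had the largest of these differences. Its inputs held 6.81, 6.83, 8.08, 2.61 and 7.62 CPM without odour and 12.3, 12.02, 12.1, 12.2 and 11.5 CPM under BFD. The groups were far apart, with SE 0.18 and adjusted p = 0.00041 by edgeR, and without pool 4 the difference was 0.70 (SE 0.10, adjusted p = 1.35e-05 by edgeR). With the length offset it was 0.44 (adjusted p = 0.002 by edgeR). Without pool 4, 7 genes were higher and 4 lower under BFD (all genes: 5.13% and 6.92%). With the length offset 1 was higher and 2 lower (all genes: 2.46% and 4.92%), and they were Cfap58, Cfap20 and Dnah7a. Between odours 0 axoneme genes passed in the inputs by edgeR (HFD_lard against NCD 0.0538%, BFD against NCD 0.108% and HFD_lard against BFD 0.0831% of all genes in either direction). At an unadjusted p under 0.05, 0 were higher and 1 lower (all genes: 3.74% and 2.87%), 16 higher and 11 lower (9.81% and 12.3%), and 7 higher and 15 lower (10.6% and 8.07%), and DESeq2 called 0, 0 and 1.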

How the data were processed

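RNA from pulldowns and inputs of 21 pools was amplified with the Ovation RNA-Seq V2 system, made into Nextera XT libraries and sequenced (Illumina HiSeq) by the authors, who ran the nf-core RNA-seq workflow with Salmon on GRCm38 and tested genes with DESeq2 1.26. The annotation release is not given in the sources used here. The authors deposited 1 table of estimated counts per gene, not normalized, with 44674 genes and 42 libraries. Of its values 30.9% were not whole, and all were rounded. Every column was used, and 0 were left out. Depth was 24839380 to 36781440 counts in the inputs and 25392651 to 36738192 in the pulldowns.

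GENCODE M21 named 44118 of the genes and left 556 without a name. Counts were fitted with edgeR 4.0.16 (R 4.3.3, limma 3.58.1) by the robust quasi-likelihood test after filterByExpr (minimum count 10) and TMM scaling, with a term for each pool in the model of pulldowns and inputs. The inputs were also fitted alone by odour. All groups entered each fit and shared 1 estimate of the spread (biological coefficient of variation 12% and 11.7%). P-values were two-sided and adjusted by Benjamini-Hochberg over all genes tested, with a threshold of 0.001. DESeq2 1.42.0 served as an alternative. TPM was computed from the counts and transcript lengths, and CPM from counts scaled by TMM, with a prior count of 2 for log2 values of pulldown over input per pool. Other alternatives were another scaling, no filter, no ribosomal RNA genes, other blocks, only the groups compared, a threshold of 0.05 and each pool left out. The offset for transcript length was added after the data were seen.

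The members and lists were chosen with earlier results of these data known. The text names the 2 most abundant genes of each role, the 5 with the smallest p in each direction past the threshold of a comparison (or 2 where none passed) and the genes not tested. Dnah5, Dnah7a and Dnah10, the called genes listed by role, and the calls in the BFD inputs were named after their values were seen.

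A pulldown and an input with the same number were taken as 1 pool. The study's methods divide the counts of each pulldown by those of its input. Over 15075 genes, the deviations of pulldown and input of a pool from the group means correlated with a median of 0.058 (-0.135 to 0.336). The median was -0.005 for other pools of the group, and 3 of 21 pulldowns were closest to their own input. The pool term therefore rests on the study's methods, and these values do not show the pairing. No 2 libraries of a group agreed within sampling noise (chi-square per gene at least 3.47 over 90 pairs). The labels number the pools and do not say how they were made, so p-values measure only the spread between these pools. The fits were tested on simulated data.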

Additional observations from a re-analysis of the deposited data

Results flagged for a closer look

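Among 60 groups of 5 or 6 pools, 8 held a pool far from the others by Dixon's test, and chance gives about 1 in 20. Of these, 3 were values of pool 4 without odour. Its heavy-chain mean deviation in the input was -1.15 with the nearest pool at -0.08, its Cfap126 input was 112 CPM with the nearest at 75.4 CPM, and its Cfap43 pulldown over input was 0.86 with the nearest at 0.49.

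Pool 6 with NCD odour stood apart for the heavy-chain mean deviation in the input, at -0.26 with the nearest at -0.02, and for Cfap43 pulldown over input, at 0.40 with the nearest at 0.13. The remaining values of pulldown over input were Dnaaf2 in pool 1 with BFD odour, at 0.58 with the nearest at 1.09, Cfap36 in pool 2 with NCD odour, at 0.85 with the nearest at 1.13, and Dnaic2 in pool 6 with HFD_lard odour, at 0.49 with the nearest at 0.38. What set these pools apart was not tested.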

How the results depend on the processing

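Counts below are axoneme genes past the threshold, higher and lower together. Of 14 named values, 357 of 416 alternative values kept direction and side of the threshold, 53 fell short of it, 6 newly passed and 0 reversed. The cause of each difference was not tested unless the alternative used fewer samples. In pulldown over input without odour the count of 26 became 13 with only the groups compared.

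For the change under NCD odour, 2 became 1 with ribosomal RNA genes left out, with only the groups compared and with the length offset. At a threshold of 0.05 the count was 14, with 3 higher and 11 lower (all genes: 6.79% and 6.31%). Under BFD odour, 2 became 11 with DESeq2, 0 with only the groups compared, 0 with the length offset and 31 at 0.05. Those 31 were 9 higher and 22 lower (all genes: 12% and 10.5%). Under HFD_lard odour, 0 became 1 with DESeq2, 1 without a filter and 14 at 0.05, with 3 higher and 11 lower (all genes: 7.67% and 8.03%). In the inputs, any odour went from 2 to 9 with DESeq2, 1 without a filter, 1 with the length offset and 25 at 0.05. Those 25 were 18 higher and 7 lower (all genes: 17.9% and 19.3%). NCD inputs went from 0 to 3 with DESeq2 and 7 at 0.05, with 5 higher and 2 lower (all genes: 11.8% and 11.6%). HFD_lard inputs went from 0 to 8 at 0.05, with 6 higher and 2 lower (all genes: 11.4% and 10.3%). BFD inputs went from 8 to 17 with DESeq2, 0 with only the groups compared, 3 with the length offset and 32 at 0.05. Those 32 were 23 higher and 9 lower (all genes: 19.3% and 20.5%). BFD against NCD inputs went from 0 to 8 with only the groups compared and 1 at 0.05 (all genes: 1.53% higher, 1.1% lower). HFD_lard against BFD inputs went from 0 to 1 with DESeq2, 1 with only the groups compared and 2 at 0.05 (all genes: 0.23% higher, 0.259% lower).

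Leaving out 1 pool gave 19 to 27 without odour, 0 to 2 for the change under NCD, 1 to 6 under BFD (6 without BFD pool 1) and 0 to 1 under HFD_lard. In the inputs it gave 0 to 5 for any odour (0 without pool 2 or 4 and 5 without pool 6 of the group without odour), 0 to 2 for NCD, 0 to 15 for BFD (0 without BFD pool 1 or 3, 15 without no-odour pool 6), 0 for HFD_lard, and 0 to 2 for BFD against NCD and HFD_lard against BFD. Without no-odour pool 4 these were 0 for the NCD change, 1 for the BFD change, 0 for any odour, 11 for BFD inputs and 2 for each of the last pair. The shares of all genes in that fit were, in the same order, 0.519%, 2.23%, 7.68% and 12%. For BFD against NCD and HFD_lard against BFD inputs they were 0.852% and 0.194%.

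Same-numbered inputs of different groups did not pair: over 27 pairs their deviations correlated with a median of 0.031 (-0.354 to 0.315), and 3 inputs were closest to their own number. A replicate block by number gave 1 for the NCD change, 1 for any odour in the inputs and 1 for BFD inputs. Without the pool term, the fit with no replicate block gave 1 for the NCD change. Genes at low counts carry wide errors, so small differences were not detectable there.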

Other observations

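Axonemal genes with other names were also compared under odour, in the same pools. Under BFD odour 1 of 38 rose and 2 fell in pulldown over input (all genes: 2.47% higher, 1.32% lower). Nme5, a radial spoke component, rose by 0.53, and without pool 4 without odour (0.47) and with the length offset (0.20) it was short of the threshold. Ak7, needed for motile cilia, was at -0.59, at -0.60 without pool 4 and at -0.60 with the length offset, past the threshold each time. Mns1, also needed for motile cilia, was at -0.48 and at -0.47 without pool 4, and with the length offset it was at -0.32, short of the threshold. In the multiciliated cell programme 0 of 13 rose and 2 fell. Cep152, which acts in centriole duplication, was at -1.03, at -0.82 without pool 4 and at -0.84 with the length offset, past the threshold each time. Plk4, which acts with it, was at -0.67, and at -0.69 and -0.64 under the same alternatives, both short of the threshold. Foxj1 changed by -0.30 (adjusted p = 0.0428 by edgeR), short of the threshold. Under NCD and HFD_lard odour 0 of either list passed.

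In the inputs with any odour, 2 of 13 genes of the multiciliated cell programme were higher and 0 lower (all genes: 5.26% higher, 6.73% lower). Rfx3, an RFX factor of ciliated cells, was at 0.36, at 0.26 without pool 4 (past the threshold) and at 0.09 with the length offset (short of it). Cep152 was at 0.60, at 0.43 without pool 4 (past the threshold) and at 0.46 with the length offset (short of it). Of 38 other axonemal genes, 1 was higher and 2 lower. Ccdc40, needed for inner arm placement, was at 0.29, and at 0.24 and 0.18 under these alternatives, both short of the threshold. Dnal4, a dynein light chain, was at -0.48, and at -0.42 and -0.29, both past the threshold. Spag8 was at -0.49, and at -0.47 and -0.31, both short of it.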
